A study of Patiria miniata with 46 samples.

Results

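Pax6 is 1 of the 66 genes that the deposited counts name by symbol, among 23869 loci, and it has 1 row there. It was chosen by that name and is described section by section along the 3 axes of a sea star arm, beside Otx and the other paired-box gene with a name, Pax2-5-8. The animals were young bat stars, Patiria miniata, with no treatment or genetic change given in the labels. Single arms were embedded, frozen and cut into serial sections, and polyadenylated RNA of each section gave 1 library. Specimen 1 gave 22 proximo-distal sections, cut along the length of an arm, and 8 oral-aboral sections, cut from face to face. Specimen 2 gave 16 left-right sections, cut from side to side. Which end bears number 1 is not given, so directions are stated by section number. Each position was cut once: a section is a position and not a replicate, and every p-value below measures scatter of sections around a pattern within 1 arm.

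Pax6 is a transcription factor with a paired domain and a homeodomain. It is known across bilaterian animals for its part in building eyes, brain and other nervous tissue. A sea star carries a cushion of simple eyes at the tip of each arm, beside the terminal tube foot, and a radial nerve cord along the midline of the underside, and in sea urchins Pax6 is known from tube feet. Otx is a homeobox factor of anterior and neural territories that works beside Pax6 in the vertebrate eye. Pax2-5-8 is the single counterpart of the vertebrate Pax2, Pax5 and Pax8 genes, and in the vertebrate brain and optic cup its domain borders that of Pax6.

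Levels are normalised CPM, counts per 1000000 of the library after scaling by the trimmed mean of M-values (TMM) within an axis, and are not compared between axes on that scale. Total counts ran from 196002 to 680685 per proximo-distal section, from 2573762 to 6921408 per oral-aboral section and from 250704 to 1591759 per left-right section. Pax6 gave 223, 412 and 477 counts along the 3 axes. Intervals for single sections are exact 95% Poisson intervals and cover counting error only. For a count of 0 the limit given is the level of 3 counts in that library. A section holds a mixture of tissues, so more Pax6 cells and more Pax6 RNA per cell cannot be told apart. None of the 9 markers of photoreceptor cells and neurons on the list used here is named in the file, so these cells could not be checked by their markers.

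**Figure D1:**
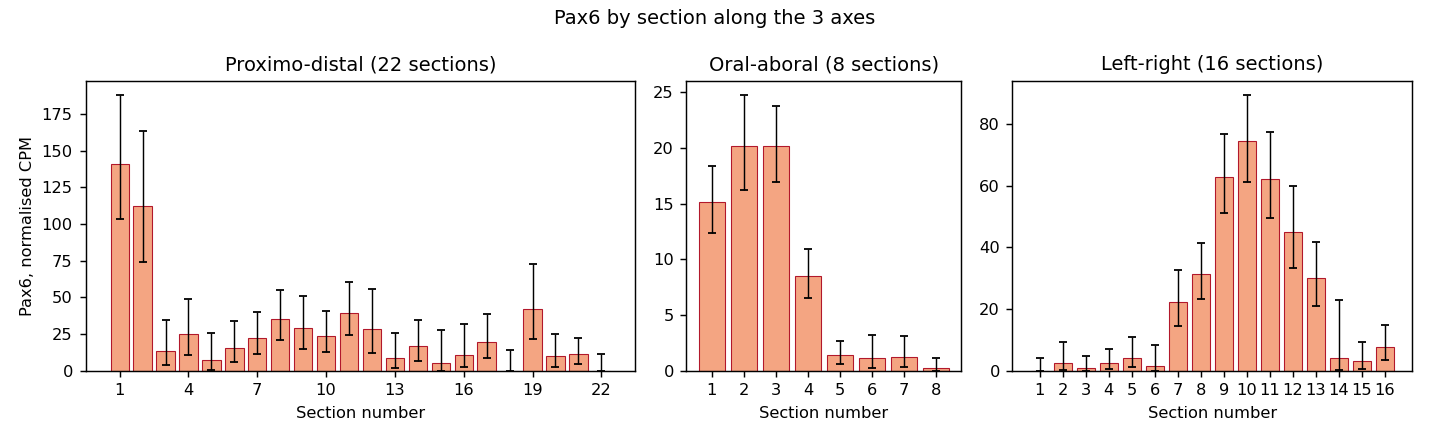
Pax6 in normalised CPM (vertical axes, a separate scale for each axis of the arm) by section number, with exact 95% Poisson intervals of the count. Sections 1 and 2 stand at 141 and 112 along the arm, sections 1 to 4 hold nearly all counts from face to face, and sections 7 to 13 stand between 22.2 and 74.3 across the arm.

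Along the length of the arm, Pax6 was highest in the first 2 sections. It stood at 141 normalised CPM in section 1 (46 counts, interval 103 to 188) and at 112 in section 2 (27 counts, interval 74.0 to 163). In section 3 it stood at 13.4 (4 counts, interval 3.64 to 34.3). The intervals of sections 2 and 3 do not overlap, and of the 21 pairs of neighbouring sections this held for 1 other, sections 18 and 19. Section 18 had 0 counts and section 19 had 12 (interval from 21.6). Sections 1 and 2 averaged 126.6 ± 20.2 (SD, n = 2) and the 20 sections after them 18.2 ± 12.3, a ratio of 6.96, and the highest of those 20, section 19, reached 41.8.

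Beyond section 2 the level was low and uneven. It was 24.9, 7.08, 15.7 and 22.6 normalised CPM in sections 4 to 7, then 35.3, 29.0, 23.8 and 39.4 in sections 8 to 11. Sections 8 to 11 averaged 31.9 ± 6.89 (SD, n = 4), against 16.7 ± 7.18 in sections 3 to 7 (n = 5) and 13.9 ± 12.5 in sections 12 to 22 (n = 11). The values of sections 8 to 11 lie above those of sections 3 to 7 except for section 10, which lies below section 4. In the last 11 sections Pax6 ranged from 0 counts in sections 18 and 22, which allows up to 11.3 and 9.05 normalised CPM, to 41.8 in section 19, with a median of 11.0. Ordered by level, the only neighbouring values with separate counting intervals were those of sections 2 and 19.

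The fall along the axis was called by the straight line from section 1 to section 22 and by a curve. The fitted log2 change of Pax6 was -2.93 ± 0.68 (SE, edgeR quasi-likelihood adjusted p = 0.00127). The background was high: 39.3% of the 11067 loci tested had a trend, 20.3% rising and 19.1% falling. A spline with 3 degrees of freedom was also called for Pax6 (edgeR adjusted p = 0.000265), as it was for 53.4% of loci. Both calls rest on the first 2 sections. Without section 1 the line gave -2.18 (edgeR adjusted p = 0.0224) and the curve was still called (edgeR adjusted p = 0.0474). Without sections 1 and 2, a test added after the values were seen, the fitted log2 change was -1.21 (edgeR adjusted p = 0.232) and the curve was not called (edgeR adjusted p = 0.104). A single unnamed locus took 0.453% to 2.16% of all counts in sections 1 to 11 and 12.2% to 50.3% from section 12 on. Fitted without that locus, the change of Pax6 was -2.87 (edgeR adjusted p = 0.00152).

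Few loci were as concentrated in the first 2 sections. They held 41.0% of the summed normalised CPM of Pax6, against 8.59% for the median locus tested. This put Pax6 at percentile 99.95 of the loci tested and at rank 1 of the 45 named genes tested. Sections 1 and 2 were the 2 highest sections for 402 of 11067 loci (3.63%) and for 4 of the 45 named genes: Pax6, the LIM homeobox gene Lhx1-5 and the signalling ligands Wnt10 and Wnt3. Wnt10 stood at 36.8 and 24.9 in sections 1 and 2 and at up to 18.7 in the others. These are shares chosen with the profile of Pax6 in view and are given as a description.

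Neither Otx nor Pax2-5-8 was high in sections 1 and 2 and low in section 3. Otx stood at 12.3 normalised CPM in section 1 (4 counts), at 54.0 in section 2 (13 counts) and at 0 to 38.3 in the others, the last reached in section 19. Section 1 of Otx lies within the values of sections 3 to 7, which averaged 12.3 ± 4.03 (SD, n = 5). Pax2-5-8 stood at 130.6 ± 31.8 in sections 1 and 2 (SD, n = 2) and at 126.5 ± 24.3 in sections 3 to 7 (n = 5), which overlap, and then at 75.3 ± 17.6 in sections 8 to 15 (n = 8) and 48.2 ± 16.1 in sections 16 to 22 (n = 7). The fitted log2 change was -0.86 ± 0.70 for Otx (SE, edgeR adjusted p = 0.344) and -2.02 ± 0.24 for Pax2-5-8 (edgeR adjusted p = 2.15e-07), and a curve was called for Pax2-5-8 (edgeR adjusted p = 2.09e-07) but not for Otx (edgeR adjusted p = 0.270).

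Whether Pax6 changed differently from the other 2 genes was tested on the ratio of their pooled raw counts. A ratio within 1 section does not depend on how libraries are scaled, but pooling gives sections with more counts more weight. Sections 1 to 7 held 104 Pax6 and 38 Otx counts, and sections 16 to 22 held 35 of each. The log2 ratio was 1.44 higher in sections 1 to 7, which did not pass (2-sided exact permutation test of sections, p = 0.0793, adjusted over 8 ratio tests p = 0.127). The ratio of Pax6 to Pax2-5-8 was 104 to 293 in sections 1 to 7 and 35 to 120 in sections 16 to 22. The difference in the log2 ratio, 0.27, did not pass (2-sided exact permutation test, p = 0.767, adjusted p = 0.767), and without section 1 it was -0.29. In section 1 alone Pax6 made 92.0% of the Pax6 and Otx counts (exact binomial interval 80.8% to 97.8%), against 67.5% in section 2 (interval 50.9% to 81.4%). Of the Pax6 and Pax2-5-8 counts, Pax6 made 47.9% in section 1 (interval 37.6% to 58.4%) and 50.9% in section 2 (36.8% to 64.9%). It made 9.30% in section 3 (2.59% to 22.1%) and at most 44.4% in the later sections, reached in section 19 (25.5% to 64.7%). The interval of section 3 lies below those of sections 1 and 2. Pooled sections 1 to 7 hold both levels, so that ratio test cannot show a step within them.

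**Figure D2:**
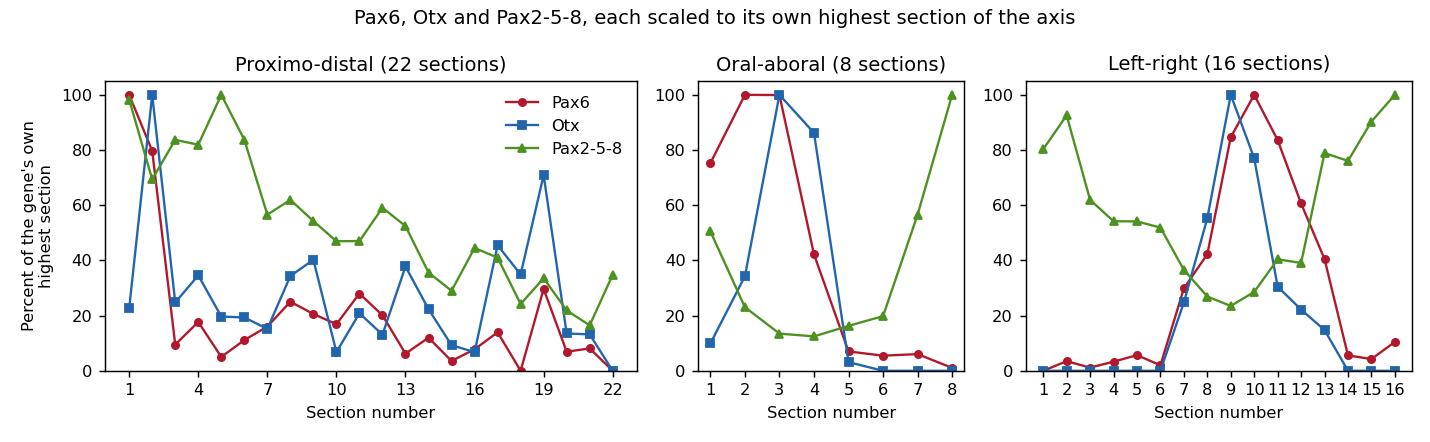
Pax6 (circles), Otx (squares) and Pax2-5-8 (triangles) by section number, each as a percentage of its own highest section of the axis. Pax6 and Otx peak in neighbouring sections along and across the arm. From face to face Pax6 is level in sections 2 and 3 (20.1 in each) where Otx peaks in section 3. Pax2-5-8 is lowest in oral-aboral sections 3 and 4, where Pax6 or Otx is near its peak, and in left-right sections 8 to 10. Across the arm Otx peaks in section 9 and Pax6 in section 10.

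From face to face, in the oral-aboral series, Pax6 was found mostly in the first 4 of 8 sections, which held 395 of its 412 counts (95.9%). It stood at 15.1, 20.1, 20.1 and 8.49 normalised CPM in sections 1 to 4 and at 1.41, 1.10, 1.22 and 0.211 in sections 5 to 8. The lowest of the first 4 values lies above the highest of the last 4. Their means were 16.0 ± 5.51 and 0.986 ± 0.532 normalised CPM (SD, n = 4 each), a ratio of 16.2. The counting intervals part at the steps from section 3 to 4 (16.9 to 23.7 and 6.5 to 10.9) and from section 4 to 5 (0.645 to 2.68), whereas those of sections 1 to 3 overlap. Among the loci tested the first 4 sections held 49.6% of the summed level of the median locus and 94.2% of that of Pax6, which ranked 3 of 63 named genes.

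The curve was called for Pax6 (edgeR quasi-likelihood adjusted p = 0.000667), with a fitted range of 5.30 on the log2 scale against 1.27 for the median locus, and 44.1% of 19769 loci were called. The straight line was called too, with a log2 change of -6.33 ± 1.06 from section 1 to section 8 (SE, edgeR adjusted p = 0.0452). This test called 0.754% of loci, 0.688% rising and 0.0658% falling. The line lay near the threshold. When any 1 section was left out, the line was called once, without section 1, and missed the threshold in the other 7 fits, at most by edgeR adjusted p = 0.258 when section 8 was the one left out. Its log2 change stayed between -7.51 and -5.75. The curve was called in all 8 of those fits, the largest edgeR adjusted p being 0.00503.

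Otx and Pax6 shared the first 4 sections in different proportions. Otx stood at 1.49, 5.15, 15.0 and 12.9 normalised CPM in sections 1 to 4, at 0.471 in section 5 and at 0 counts in sections 6 to 8. Sections 1 and 2 held 192 of the 412 Pax6 counts (46.6%) and 33 of the 235 Otx counts (14.0%). The share of Pax6 among the counts of both genes was 91.1% in section 1 (exact binomial interval 84.2% to 95.6%), 79.6% in section 2 (interval 71.0% to 86.6%), 57.3% in section 3 (interval 50.8% to 63.5%) and 39.6% in section 4 (interval 31.8% to 47.8%). The shares fall from section to section, and those intervals part between sections 2 and 3 and between sections 3 and 4. In section 5 the share rested on 12 counts, at 75% (interval 42.8% to 94.5%). Over sections 1 to 5 the ratio and the section number had a Spearman rho of -0.70 (2-sided exact permutation test, n = 5, p = 0.233), a stretch chosen after the values were seen. Between sections 1 to 4 and 5 to 8 the log2 ratio of pooled counts differed by -1.56, which rests on 3 Otx counts in sections 5 to 8 and did not pass (2-sided exact permutation test, p = 0.429, adjusted p = 0.490). Otx itself was not called by the line (edgeR adjusted p = 0.545) and was called by the curve (edgeR adjusted p = 0.00136).

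Pax2-5-8 ran the other way through much of this axis. It stood at 127.6 and 58.2 normalised CPM in sections 1 and 2, at 34.0, 31.5, 41.1 and 50 in sections 3 to 6 and at 142.9 and 252.5 in sections 7 and 8. It was thus high at both faces, and Pax6 was high beside it in section 1 and at its lowest in section 8. The curve was called for Pax2-5-8 (edgeR adjusted p = 0.000456) and the line was not (log2 change 1.17 ± 0.84, SE, edgeR adjusted p = 0.771). Sections 1 to 4 held 395 Pax6 and 1585 Pax2-5-8 counts and sections 5 to 8 held 17 and 2066. The log2 ratio differed by 4.88. With 4 sections against 4 the exact permutation test gave p = 0.0286, the smallest it can give, and 0.0762 after adjustment over the 8 ratio tests.

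From side to side Pax6 formed a single peak around section 10. The level was 22.2, 31.4, 62.9, 74.3, 62.1, 45.1 and 30.1 normalised CPM in sections 7 to 13, which held 453 of its 477 counts (95%). In the other 9 sections it ranged from 0 (section 1, where 3 counts would be 3.42) through a median of 2.58 to 7.78 (section 16, 9 counts, interval 3.56 to 14.8). The lowest of the 7 sections is above the highest of the 9, and the means are 46.9 ± 19.9 and 2.96 ± 2.29 (SD, n = 7 and n = 9), a ratio of 15.8. The counting intervals part at the step from section 6 to 7 (upper bound 8.29, lower bound 14.5) and from section 8 to 9. On the far side section 14 had 1 count in a shallow library (interval 0.105 to 23.1), so the place of that edge is not resolved.

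The middle against the edges was called for Pax6 (edgeR quasi-likelihood adjusted p = 6.25e-06), with a fitted log2 difference of 6.35 ± 0.71 (SE), and in all 16 fits that left out 1 section. The difference was smaller with limma-trend (3.54, adjusted p = 0.00265) and for sections 6 to 11 set against the others (2.00, edgeR adjusted p = 0.0383), and was called in both. Of 16523 loci tested 21.8% were called. The middle was the higher place for 12.9% of loci and the edges for 8.96%. Otx was also called higher in the middle (edgeR adjusted p = 1.88e-08), with 0 counts in sections 1 to 6 and 14 to 16 and 441 in sections 7 to 13. Pax2-5-8 was called higher at the edges (log2 difference -1.69 ± 0.26, SE, edgeR adjusted p = 0.000164). It had its lowest levels in sections 8 to 10, at 44.0, 38.4 and 46.7 normalised CPM, and stood between 63.8 and 163.4 in the 10 outer sections.

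The peak of Pax6 lay off the centre of the series. Of the 8 mirror pairs of sections (1 and 16, 2 and 15, and so on) Pax6 was higher in the later section in all 8, Otx in 5 with 3 pairs at 0 counts, and Pax2-5-8 in 3. For Pax6, sections 3 and 14 had 1 count each and sections 2 and 15 had 2 and 3, so those pairs do not resolve a side. Sections 12 to 16 averaged 18.0 ± 18.7 and sections 1 to 5 averaged 2.02 ± 1.64 (SD, n = 5 each). The slope term, fitted beside the midline term, was called for Pax6 (log2 change 6.06 ± 0.94 from section 1 to section 16, SE, edgeR adjusted p = 0.00150) and for Otx (edgeR adjusted p = 0.000812), but not for Pax2-5-8 (edgeR adjusted p = 0.889). It was called for 1.07% of loci, 0.920% with a rise and 0.151% with a fall. With limma-trend, which works on log2 CPM, the slope of Pax6 was 2.75 and was not called (adjusted p = 0.165). The slope of Otx was not called with limma-trend or DESeq2 (adjusted p up to 0.608).

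The fitted parabola of Pax6 peaked at section 10.3 and that of Otx at section 9.67, while the median over the 2125 loci called higher in the middle was 8.83 (10th to 90th percentile 7.59 to 10.0). Pax6 lay above 92.7% of those loci. Of the 54 named genes tested across the arm, 26 were called higher in the middle. Among those 26, Tailless, a nuclear receptor of the vertebrate forebrain and eye, at 10.4, and Dkk3 at 11.0 peaked at higher section numbers than Pax6. With the centre moved to the median peak, a choice made after the values were seen, the slope of Pax6 was 4.94 (edgeR adjusted p = 0.00765).

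**Figure D3:**
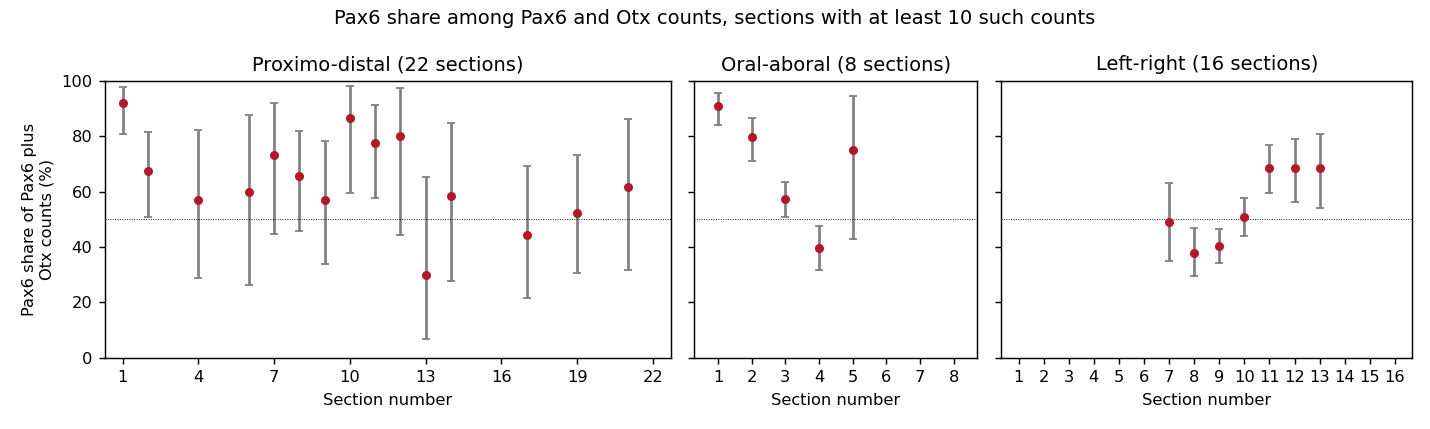
Share of Pax6 among the summed Pax6 and Otx counts of a section (vertical axis, percent) by section number, for sections with at least 10 such counts, with exact 95% binomial intervals and a dotted line at 50%. The share falls from 91.1% to 39.6% over oral-aboral sections 1 to 4, and is between 37.9% and 50.9% in left-right sections 7 to 10 and at 68.6% in sections 11 to 13.

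Within the shared 7 sections Pax6 sat towards higher section numbers than Otx. Otx stood at 23, 51.5, 93.1 and 71.7 normalised CPM in sections 7 to 10 and at 28.4, 20.7 and 13.8 in sections 11 to 13. Pax6 made 49.1% of the counts of both genes in section 7 (exact binomial interval 35.1% to 63.2%), 37.9% in section 8 (29.6% to 46.7%), 40.3% in section 9 (34.2% to 46.7%) and 50.9% in section 10 (44.1% to 57.7%). In sections 11, 12 and 13 it made 68.6% of them, with intervals of 59.5% to 76.9%, 56.4% to 79.1% and 54.1% to 80.9%. The interval of section 11 lies above those of sections 8 to 10. Over the 7 sections the ratio and the section number had a Spearman rho of 0.75, which did not pass (2-sided exact permutation test, n = 7, p = 0.0663), a stretch chosen after the values were seen. Outside them Pax6 had 24 counts and Otx 0.

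The ratio tests across the arm set pooled counts of the 6 central sections (6 to 11) against the 10 others. Pax6 and Otx had 371 and 403 counts in the centre and 106 and 38 outside, so that the log2 ratio was 1.59 lower in the centre (2-sided exact permutation test, p = 0.0251, adjusted over 8 tests p = 0.0762). Pax6 and Pax2-5-8 had 371 and 415 counts in the centre and 106 and 1119 outside, with a log2 ratio 3.23 higher in the centre (2-sided exact permutation test, p = 0.0131, adjusted p = 0.0762). Neither passed after adjustment. With the mean of the section ratios in place of pooled counts both did (2-sided exact permutation test, adjusted p = 0.0425 for each, differences -1.84 and 3.57). Between the sides the Pax6 to Pax2-5-8 ratio was 10 to 542 in sections 1 to 5 and 96 to 577 in sections 12 to 16 (log2 difference -3.11, 2-sided exact permutation test, p = 0.0556, adjusted p = 0.111). The Pax6 to Otx ratio was 10 to 0 and 96 to 38, with p = 0.381 in the same exact permutation test (adjusted p = 0.490).

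Among the 10 genes of eye and forebrain development in other animals that the file names beside Pax6, several were called higher in the middle, as Pax6 was. Of 7 tested, 6 had this call, a share to be read against 12.9% of all loci: Otx, Dmbx, Tailless, FoxG, Six3-6 and BarH1. Named genes of any kind had it more often than all loci, by the counts given with the fitted peaks. The parabolas peaked at section 8.51 for Six3-6, 8.82 for FoxG, 9.26 for BarH1, 9.67 for Otx, 9.90 for Dmbx and 10.4 for Tailless. That of Pax6 peaked at 10.3, and the median over loci called higher in the middle was 8.83. Otp, a homeobox gene of the vertebrate hypothalamus, was called higher at the edges, against 8.96% of loci. The median log2 difference of the 7 was 2.35, against 0.12 over all loci. Otx, Dmbx and Tailless were also the 3 of 7 called with a positive slope, against 0.920% of loci. All 3 of these slope calls ended with limma-trend (largest adjusted p over the alternatives 0.608 for Otx, 0.557 for Dmbx and 0.534 for Tailless), and those of Otx and Dmbx also with DESeq2. In the oral-aboral series 7 of 9 tested were called by the curve (Otx, FezF, Otp, Tailless, Dmbx, FoxG and Lhx2-9), against 44.1% of loci, and 0 of 9 by the line. The curve calls of Dmbx, FoxG and Otp each held in 8 of 9 alternatives. With 1 section left out the call of FoxG held in 5 of 8 fits and that of Dmbx in 6 of 8. Along the arm only 3 passed the low-count filter (Otx, BarH1 and Six3-6) and 0 were called. Peaks differed between members: Dmbx, a paired-type homeobox gene of the vertebrate midbrain, reached 14.3 normalised CPM in oral-aboral section 3 and 89.3 in left-right section 9, and FoxG, a forkhead gene of the vertebrate forebrain, reached 49.9 in proximo-distal section 21, where Pax6 stood at 11.4.

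The 6 genes whose domains border that of Pax6 in the vertebrate brain, optic cup or neural tube moved both ways. Along the arm 2 rose towards section 22 (the homeobox gene Nkx2.2 and the signalling ligand Hedgehog, against 20.3% of loci), 2 fell (Pax2-5-8 and the growth factor FGF8-17-18, against 19.1%) and Engrailed and Emx were not called. Across the arm Hedgehog and Nkx2.2 were called higher in the middle (against 12.9% of loci), Pax2-5-8 at the edges (against 8.96%), and 3 were not called. The median log2 difference of the 6 was 0.19, close to that of all loci. From face to face Emx, a homeobox gene of the vertebrate cerebral cortex, fell (log2 change -3.89 ± 0.53, SE, edgeR adjusted p = 0.0178), and the other 5 were not called by the line, which called a fall for 0.0658% of loci. The Emx call ended in 2 of 10 alternatives (largest adjusted p 0.570). The curve was called for 5 of the 6 (Pax2-5-8, Emx, Nkx2.2, Hedgehog and FGF8-17-18), against 44.1% of loci. Emx stood at 154.3 normalised CPM in section 1, its highest, where Pax6 stood at 15.1. Engrailed was called in none of the 6 fits.

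Genes that mark domains of the vertebrate neural tube formed another list, which shares Nkx2.2 and Hedgehog with the one before. Along the arm 5 of its 7 tested members other than Pax6 rose (Nkx2.2, Nkx2.1, Irx, Nkx6 and Hedgehog, against 20.3% of loci) and 2 fell (Lhx1-5 and Msx, against 19.1%), with a median log2 change of 1.87 against 0.01 over all loci. The direction of Pax6 was that of Lhx1-5 and Msx. Lhx1-5 was highest in section 1, at 229.7 normalised CPM, and Msx in section 11, at 33.8. Across the arm Hedgehog, Nkx6 and Nkx2.2 were called higher in the middle with Pax6 (against 12.9% of loci), and Msx and Lhx1-5 at the edges (against 8.96%). From face to face 0 of 8 were called by the line, against 0.754% of loci, and 6 by the curve, against 44.1%. Of the 6, Irx, Nkx6, Nkx2.1, Nkx2.2 and Hedgehog were highest in section 5 or 6, where Pax6 stood at 1.41 and 1.10. FoxA, a forkhead gene of endoderm and the only named marker of other arm tissues on the list used, rose along the arm, from 6.13 and 16.6 normalised CPM in sections 1 and 2 to 1566 in section 22, and was also highest in oral-aboral section 5 (541.6). Across the arm FoxA was called higher in the middle, as Pax6 was (log2 difference 5.51 ± 0.50, SE, edgeR adjusted p = 5.72e-07). It averaged 77.6 ± 37.3 in left-right sections 6 to 11 and 15.3 ± 14.2 in the 10 outer ones (SD).

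**Figure D4:**
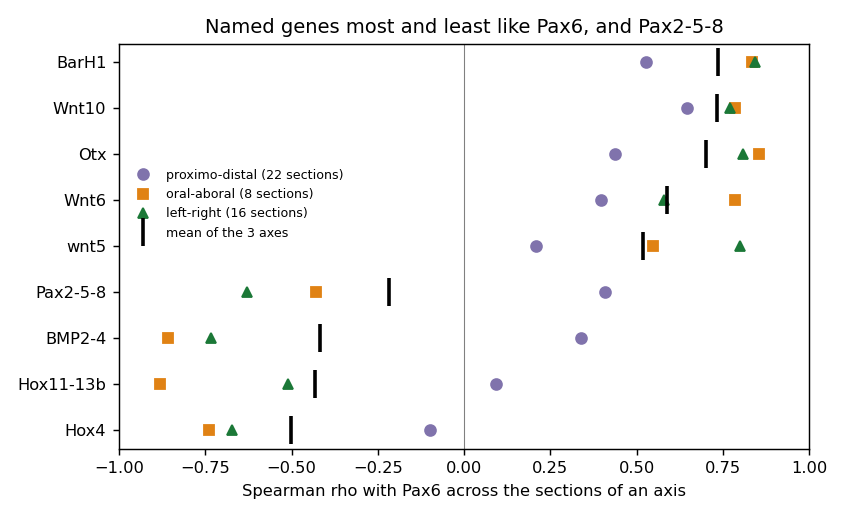
Spearman rho with Pax6 across the sections of each axis (circles, squares and triangles) and the mean of the 3 (bars) for the 5 named genes most like Pax6, the 3 least like it and Pax2-5-8. The mean runs from 0.74 for BarH1 to -0.50 for Hox4, and Pax2-5-8 is above 0 along the arm only.

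Likeness to Pax6 was measured as the mean over the 3 axes of the Spearman rho of log2 normalised CPM across the 22, 8 and 16 sections, for the 57 named genes with at least 15 counts on every axis. All genes of a section share its library, depth and arm, so these values are descriptions. The 5 most alike were BarH1 (mean rho 0.74), Wnt10 (0.73), Otx (0.70), Wnt6 (0.59) and wnt5 (0.52). The median of the 57 was 0.17 and that of all 17045 loci with such counts 0.01. The least alike were BMP2-4 (-0.42), Hox11-13b (-0.43) and Hox4 (-0.50), and Pax2-5-8 stood at -0.22. The 2 unnamed loci most alike were V4_HAP1_PB.23217 (0.79) and V4_HAP1_PB.5940 (0.76).

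BarH1, a homeobox gene of sensory and neural cells in other animals, followed Pax6 in order more than in contrast. Across the arm it peaked in section 10 as Pax6 did, at 53.3 normalised CPM, but stood between 7.98 and 26.3 in the 10 outer sections. From face to face it was highest in section 2 (22.1) and still stood at 6.11 to 11.0 in sections 5 to 8. Along the arm it was highest in section 12 (38.9), and it stood at 27.6 and 12.5 in sections 1 and 2. The line there was not called for it (log2 change -0.30, edgeR adjusted p = 0.717). Its rho with Pax6 was 0.53, 0.83 and 0.84 along the 3 axes. Wnt10, a secreted Wnt ligand, was like Pax6 highest in the first 2 proximo-distal sections, as given above. It had 146 counts in oral-aboral sections 1 to 4 and 13 in sections 5 to 8, and across the arm it was highest in section 10, at 24.3, against 0 to 15.7 elsewhere. Its rho was 0.64, 0.79 and 0.77. Wnt6 and wnt5, further Wnt ligands, were alike across the arm and from face to face but less so along it, with a rho of 0.40 and 0.21 there.

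The least alike genes had a negative rho with Pax6 from face to face and across the arm. Along it the rho was 0.09 for Hox11-13b and -0.10 for Hox4. BMP2-4, a secreted signalling ligand, had a rho of -0.86 and -0.73 with Pax6 from face to face and across the arm but 0.34 along it, where both were called as falling. Hox11-13b, a posterior Hox gene, stood at 8.47 and 3.80 normalised CPM in oral-aboral sections 1 and 2 and at 83.2 and 63.8 in sections 7 and 8. Hox4 averaged 10.2 ± 4.45 in the 6 central left-right sections and 19.4 ± 6.53 in the 10 outer ones (SD), the reverse of Pax6, which averaged 42.4 ± 28.4 and 10.0 ± 15.1.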

How the data were processed

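Polyadenylated RNA of 46 arm sections was sequenced. Per the labels' protocols, libraries were made with an Iso-Seq Express (PacBio full-length) preparation. The deposited file holds raw counts, whole numbers per transcript model and section, as the authors deposited them. How reads were mapped, counted and filtered, and against which build, is not given in the sources used here. Whether the counted reads came from that preparation or were short reads mapped to the transcript models is not stated either. The bracketed code in a sample's title ties it to its column, and all columns were used. The 1925 loci with 2 rows were summed, giving 23869. The RefSeq gene table matched 0 row names, and no sequence was used here.

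Each axis was fitted alone with edgeR 4.0.16 in R 4.3.3: filterByExpr (minimum count 5, total 15), TMM, glmQLFit and glmQLFTest, with Benjamini-Hochberg adjustment over all loci at 0.05. Terms were position, a spline with 3 degrees of freedom, or left-right position and its square. Ratio tests used pooled counts plus 0.5. The gene lists and Pax6 itself were chosen with earlier results of these data known. Named were Pax6, Otx, Pax2-5-8, the 5 most and 3 least alike genes by mean rho, the 2 most alike unnamed loci, and up to 4 called list members per test and direction. Further called list members, Wnt3, and Tailless and Dkk3 beside the fitted peak, were named after their values were seen.

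On simulated counts with 200 changed loci, log2 changes of 3 were recovered in 96% (proximo-distal line, 11067 loci), 98% (proximo-distal curve), 29% (oral-aboral line, 19769 loci), 92% (oral-aboral curve), 91% (left-right midline, 16523 loci) and 86% (left-right slope) of cases. Log2 changes of 1 were recovered in 12%, 12%, 0%, 3%, 6% and 1% of cases, in the same order, so changes of that size were mostly missed. Of the calls made on the simulated counts, 0.901% to 6.9% were of unchanged loci. There each section was drawn independently and all but the 200 loci were flat. The rate does not cover neighbouring sections that vary together, and that of the real sections was not measured. No 2 libraries of an axis agreed within sampling noise (smallest chi-square per degree of freedom 1.43). Alternatives were other scaling, other filters, DESeq2 1.42.0, limma-trend (limma 3.58.1), groups of sections, left-out sections and log2 total count as a covariate.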

Additional observations from a re-analysis of the deposited data

Results flagged for a closer look

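In proximo-distal sections 1 to 7, section 2 stood far from the others for Otx, at 54.0 normalised CPM (13 counts), against 8.20 to 18.7 in the other 6. Its gap to the nearest value was 0.771 of the range of these sections, above the critical value of 0.568 for 7 values. In all, 24 ranges of sections of Pax6, Otx and Pax2-5-8 were examined in this way, and chance flags about 1 in 20. Pax6 stood at 112 in the same section and at 141 in section 1. Whether section 2 is far as a position or as a library was not tested.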

How the results depend on the processing

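Of 76 values of the 14 results on Pax6 under other settings, 66 kept their direction and their side of the threshold. Those that did not were as follows. The proximo-distal line ended without sections 1 and 2 (-1.21), and the proximo-distal curve without them (1.49) and without both end sections (1.96). The oral-aboral line ended without both end sections (-7.36), with log2 total count as a covariate (-6.12) and for sections 1 to 3 against 6 to 8 (-4.50), and the left-right slope with limma-trend (2.75). With the mean of section ratios, the left-right middle passed for Otx (-1.84) and Pax2-5-8 (3.57), and the Pax6 to Otx ratio between the sides was -0.19 against 3.07. Leaving out 1 section changed no call of Pax6 except that of the oral-aboral line (-7.51 to -5.75). It moved the proximo-distal line between -3.50 and -2.18 (least without section 1), the curve there between 2.60 (without section 1) and 4.39 (without section 19), the oral-aboral curve between 4.37 (without section 8) and 6.49 (without section 7), the slope between 5.41 (without section 6) and 7.11 (without section 2) and the midline between 5.93 and 7.45 (without section 16). The proximo-distal Pax6 to Pax2-5-8 ratio moved between -0.29 and 0.68 and turned without section 1 or section 2. The left-right slope of Pax2-5-8, which was not called, moved between -0.093 (without section 1) and 0.25, and turned also without section 13. Pax6 kept its call but moved by over 1.5 times in the proximo-distal line without both end sections (-1.90), for sections 1 to 7 against 16 to 22 (-1.79) and with limma-trend (-2.26), in the proximo-distal curve (2.96), oral-aboral line (-5.43) and oral-aboral curve (4.61) with limma-trend, in the oral-aboral curve (4.58) and the midline (7.56) without both end sections, and in the slope with DESeq2 (5.35). The causes were not tested. Pax6 did not pass the low-count filter for left-right sections 1 to 5 against 12 to 16, so that fit gave no value.

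Scaled by total count alone, the median locus changed by -0.66 along the arm, -0.35 from face to face and 0.49 towards the middle, and Pax6 by -3.64, -6.64 and 6.75. The share of calls that rose along the arm was then 21.7%, against 51.6%, the share of oral-aboral line calls that rose 76.7%, against 91.3%, and the share of midline calls higher in the middle 85.0%, against 58.9%. The oral-aboral line called 149 loci, and 0 to 599 under other settings. The curve there called 8722, and 3236 without both end sections. The left-right slope called 177, and 52 to 284. List calls that ended in some of the 10 midline alternatives were those of Otp (4), BarH1 (3), Lhx1-5 (3), Msx (1) and Tailless (1). With 1 section left out, these midline calls held in 5 of 16 fits for Lhx1-5, 11 for Otp, 13 for BarH1, 15 for Msx and 16 for Tailless. The oral-aboral curve calls of FGF8-17-18, Nkx2.1 and Nkx2.2 each held in 8 of 9 alternatives, and that of FGF8-17-18 in 7 of 8 fits with 1 section left out. No paired analysis was possible because section numbers are positions along an axis, each cut once, and no section of 1 axis matches one of another. A count of 0 allows 15.3 CPM in the shallowest proximo-distal section and 1.17 in the shallowest oral-aboral one, so low Pax6 levels along the arm are the least resolved.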

Other observations

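Summed over all sections of an axis and taken per 1000000 of all deposited counts, Pax6 made 25.7 CPM in the proximo-distal series, 9.74 in the oral-aboral series and 27.5 in the left-right series. Otx made 13.2, 5.56 and 25.4, and Pax2-5-8 made 76.6, 86.3 and 88.4. The oral-aboral series thus held the lowest Pax6 and Otx sums of the 3, while Pax2-5-8 was nearly equal in all. The axes are different arms of 2 specimens with 1 series each, so these sums have no replicate and were not tested.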
